A study of Homo sapiens with 3 samples.

Results

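The genes described here encode the readers and writers of heterochromatin: the 3 proteins of the HP1 family (CBX5, CBX1 and CBX3), the methyltransferases SUV39H1, SUV39H2, SETDB1, EHMT1 and EHMT2, and the corepressor TRIM28. They were taken as every probe set of the array that names exactly 1 gene in the platform annotation, that gene being one of these 9, which gave 25 probe sets of the 49395 on the array and of the 44988 that name 1 gene. The values that led to the choice were the treated-minus-untreated differences of CBX5, so all differences of these 9 genes between treated and untreated cells are given as a description, without a test. RNA came from FaDu, an established squamous cell carcinoma line of the hypopharynx. One array held cells kept for 48 h with 10 µg/ml of NSC-631570, an extract of greater celandine (Chelidonium majus), and 2 arrays held untreated cells, which were incubated with distilled water for the same time. The treated condition has no replicate, the labels do not say whether the untreated arrays came from separate cultures, and all values come from 1 cell line.

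Heterochromatin is marked by methylation of lysine 9 on histone H3. SUV39H1 and SUV39H2 place the trimethyl mark at pericentromeric repeats, SETDB1 places it at sites to which TRIM28 is brought by zinc finger proteins, and EHMT1 and EHMT2 act as a pair that places the lower methylation states in euchromatin. The HP1 proteins read the mark with a chromodomain and form dimers through a chromoshadow domain, by which they also bind TRIM28 and other partners.

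Values are log2 signals of single probe sets, so a difference of 1 is a 2-fold difference. The array medians were 6.55 for the treated array and 6.62 and 6.57 for the untreated arrays. The brightest probe sets of the squamous epithelial genes named here (6 of 9 listed: KRT5, KRT14, SFN, CDH1, EPCAM and DSG3) lay between 9.61 and 13.96 in the treated array, between 9.46 and 13.43 in untreated 1 and between 9.93 and 13.48 in untreated 2. Those of 8 genes of other cell types, with the leukocyte gene PTPRC the lowest, lay between 3.78 and 7.40, between 3.72 and 7.54 and between 3.72 and 7.79 on the same arrays, and CDH5, PECAM1 and COL1A1 were above a log2 signal of 5.85, the filter used for tests, on every array. The dimmer probe sets of KRT5, CDH1, DSG3 and EPCAM were lower in the treated array than in both untreated arrays. The dimmer one of KRT5 was 10.18 in the treated array, against 12.49 and 12.47, and that of CDH1 was 5.85, against 7.33 and 7.01. The brightest of KRT5 (12.91, against 13.21 and 13.39) and EPCAM (12.40, against 12.74 and 12.91) were also below both untreated arrays. The brightest of CDH1 (12.03, against 11.89 and 11.77) was above both, and that of DSG3 lay between them. Control probe sets show how far along a transcript the labelled RNA reached. The 5′ control of ACTB was 12.23 in the treated array, against 13.61 and 13.60 in the untreated arrays, which is 2.59-fold lower, while its 3′ control was 14.40 in the treated array, against 14.19 and 14.21. The 5′ control of GAPDH was also lower, by less, with 14.00 in the treated array, against 14.45 and 14.51. In bulk RNA, fewer cells of a type and less RNA per cell cannot be told apart.

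CBX5 encodes HP1 alpha, which is concentrated at pericentromeric heterochromatin. The RefSeq table lists 3 curated transcripts for it, and RefSeq promoter windows (GRCh38.p14, 300 bases around a start) lie in 2 separate places of its locus on the minus strand of chromosome 12. The windows of both places are shown because the probe sets of CBX5 disagree and the gene has more than 1 start. Capitals mark the motifs that were searched on both strands: GCGTG (the core bound by the aryl hydrocarbon receptor), CACGTG (an E-box), GGGCGG (a GC box), CCAAT, and TTTGGCGC or TTTCGCGC (E2F forms).
CBX5 upstream start, chr12:54280073-54280372: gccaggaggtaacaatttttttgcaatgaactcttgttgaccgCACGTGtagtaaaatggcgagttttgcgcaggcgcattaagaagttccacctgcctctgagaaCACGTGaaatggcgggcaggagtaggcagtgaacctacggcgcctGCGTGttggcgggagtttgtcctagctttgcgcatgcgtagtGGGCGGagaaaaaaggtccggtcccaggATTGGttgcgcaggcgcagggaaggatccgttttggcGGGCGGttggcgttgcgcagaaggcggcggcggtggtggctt
CBX5 downstream start, chr12:54259537-54259836: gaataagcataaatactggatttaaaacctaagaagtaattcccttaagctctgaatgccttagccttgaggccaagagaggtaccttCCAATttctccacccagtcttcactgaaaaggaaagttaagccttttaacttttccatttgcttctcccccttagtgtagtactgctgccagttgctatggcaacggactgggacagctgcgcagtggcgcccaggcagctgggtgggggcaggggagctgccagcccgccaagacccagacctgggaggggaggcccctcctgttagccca
The upstream window holds 1 GCGTG, 2 CACGTG, 2 GGGCGG and 1 CCAAT, has 25 CpG dinucleotides, and no motif overlaps another. The downstream window holds 1 CCAAT and 4 CpG dinucleotides, and a further RefSeq window, which overlaps it, has 1 CCAAT as well. Of 35116 windows of this length in the RefSeq table, 36.5% hold GCGTG, 7.26% CACGTG, 45.0% GGGCGG, 34.6% CCAAT and 1.15% an E2F form, on either strand. Every window that the table holds for the other members has a GCGTG on one strand or the other. None is held for TRIM28, and the 2 of SETDB1 overlap. These windows hold between 7 and 51 CpG dinucleotides, against a median of 14 over the 35116. GGGCGG occurs in those of CBX3, SUV39H2, EHMT1 and EHMT2 and in 1 of SUV39H1. That of CBX3 has an E2F form and those of SETDB1 and EHMT2 a CACGTG. Matches are a description of the letters only. The probe sets cannot be assigned to either start from the sources used here.

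CBX5 has 7 probe sets, and they lay on both sides of the untreated arrays: 4 were below both and 3 above both. The brightest, 11716276_a_at, was 8.18 in the treated array, against 11.05 in untreated 1 and 10.47 in untreated 2. This is 5.99-fold lower (log2 difference -2.58), and the untreated arrays themselves were 0.58 apart. Probe set 11716280_a_at was 6.92 in the treated array, against 8.14 and 7.87 in the untreated arrays, which is 2.13-fold lower (-1.09). Probe set 11716275_a_at was 6.78 in the treated array, against 7.57 and 7.51 (-0.75). The treated value lay below both untreated values in each of these 3 probe sets, by more than the gap between the untreated arrays. Probe set 11740499_a_at was 9.40 in the treated array, against 9.40 and 9.67, and its treated value lay only 0.0019 below the nearer untreated array.

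The other 3 probe sets of CBX5 ran the opposite way. Probe set 11716277_a_at was 9.65 in the treated array, against 8.74 and 8.63 in the untreated arrays, which is 1.96-fold higher (0.97). Probe set 11716279_x_at was 9.54 in the treated array, against 8.96 and 8.81 (0.65), and 11716278_s_at was 9.37 in the treated array, against 8.95 and 8.61 (0.59). All 3 treated values were above both untreated values. The annotation lists the same target sequence for these 3, the RefSeq transcript NM_001127322.1, whereas each of the 4 lower probe sets is listed with a cDNA or an expressed sequence tag (EST) outside RefSeq. By the naming of the array, probes of an _s_at or _x_at set can match other transcripts, and 2 of the 3 higher probe sets carry such a suffix. The mean over all 7 probe sets was 0.34 below the untreated mean (-0.34), while their median was -0.14.

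**Figure D1:**
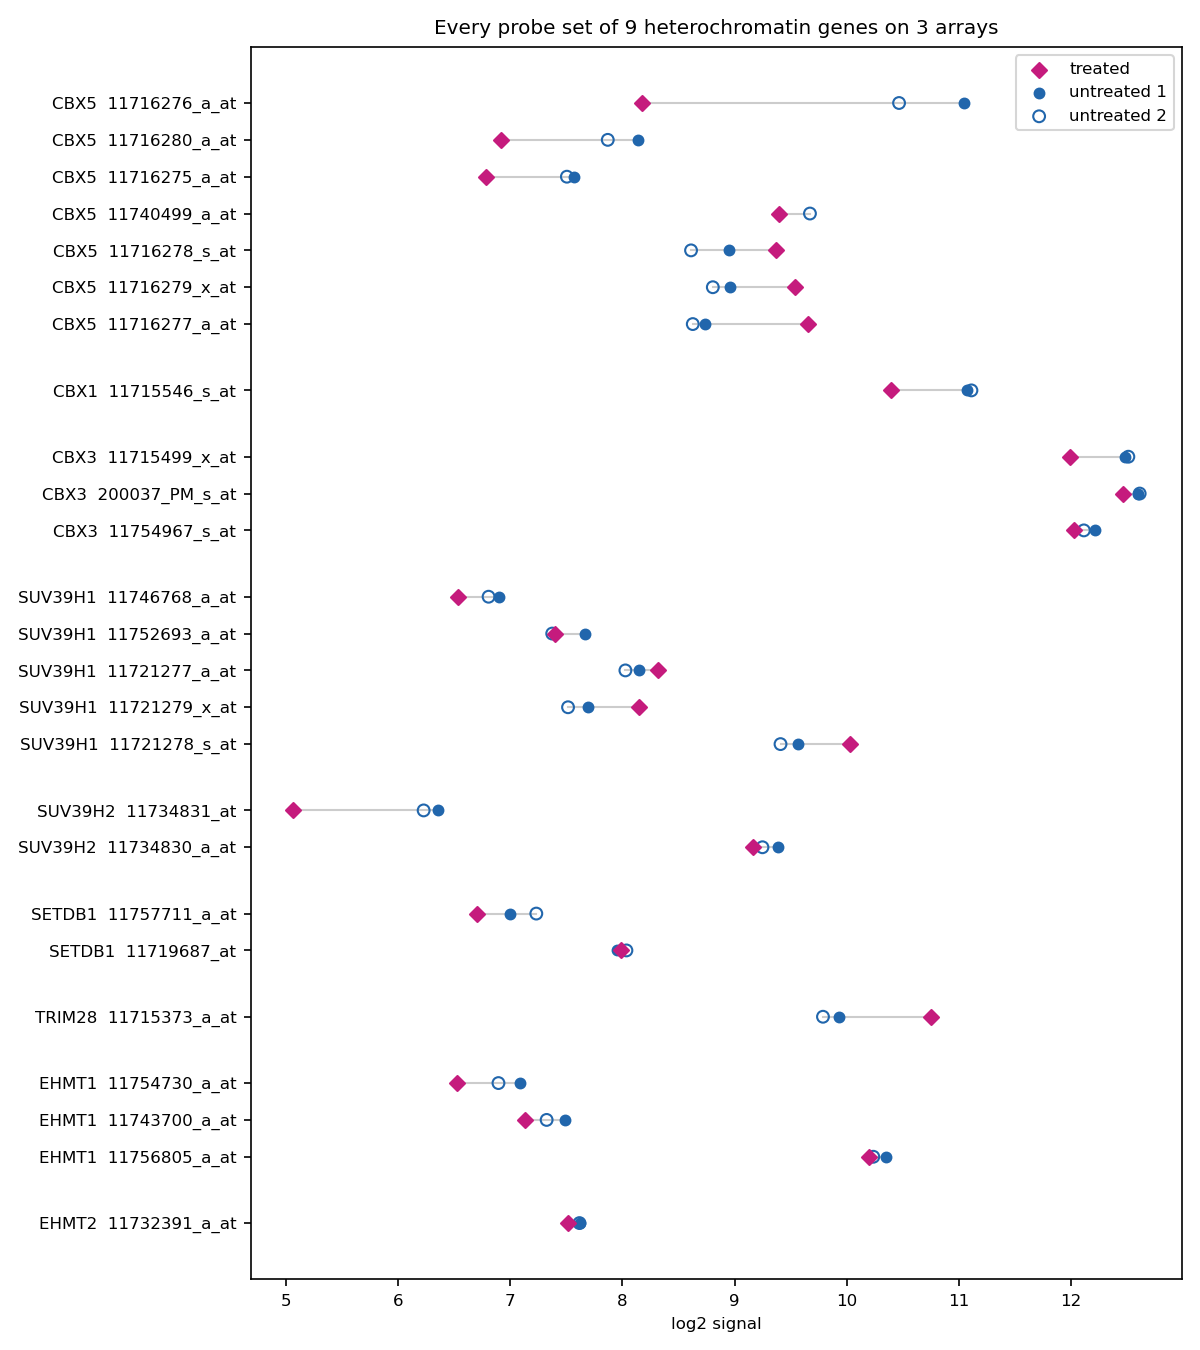
Log2 signal (horizontal axis) of each of the 25 probe sets of 9 heterochromatin genes, with the treated array as a diamond and untreated 1 and untreated 2 as filled and open circles. For CBX5 the treated array is below both untreated arrays in 4 probe sets and above both in 3.

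The spread among CBX5 probe sets was the widest of the 1059 genes with at least 5 probe sets past the signal filter (a mean of 5.85 over the arrays, the 40th percentile of all probe sets). Its highest and lowest differences were 3.55 apart, against a median of 0.75 over these genes and a 95th percentile of 1.89. Next came FCF1, which acts in ribosome assembly (2.92), and the RNA-binding protein gene QKI (2.84). CBX5 was chosen by these same differences, so its rank is a description only. A spread of this kind can only widen with more probe sets, and CBX5 has 7, where FCF1 and QKI have 5 each. The same spread, taken between the untreated arrays, was 0.85 for CBX5, rank 119, against a median of 0.45. SUV39H1, the other member with at least 5 probe sets, had a spread of 0.86 between treated and untreated cells and rank 435. HNRNPA1, the next protein-coding gene beyond the CBX5 start, ranked 12. Its probe set 11753459_x_at was 10.01 in the treated array, against 12.31 and 12.53 in the untreated arrays (-2.41), and its other 4 lay between -0.39 and -0.02. All 5 probe sets of HNRNPA1 carry an _s_at or _x_at suffix, and the gene has many processed copies, so its values are uncertain.

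**Figure D2:**
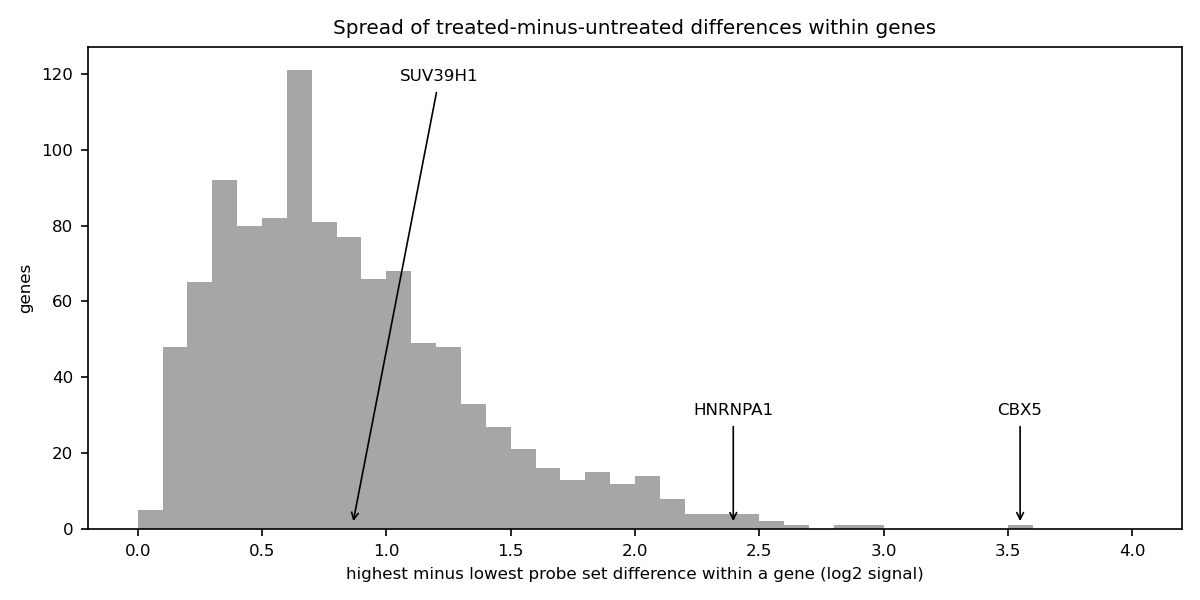
Number of genes (vertical axis) by the highest minus the lowest treated-minus-untreated log2 difference among their probe sets, for the 1059 genes with at least 5 tested probe sets. CBX5, which was chosen by these differences, stands at 3.55, HNRNPA1 at 2.40 and SUV39H1 at 0.86.

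The pattern of 11716276_a_at over the 3 arrays was compared with other genes by Euclidean distance of the deviations from the untreated mean. Listed outside RefSeq were 18685 of all 27249 tested probe sets. So were 668 of the 700 at least 2-fold below both untreated arrays, and all 5 probe sets nearest in pattern. They belong to the tyrosine kinase gene FER (-2.66, distance 0.25), the calcineurin-like protein gene CHP1 (-2.68, 0.25), FAM98B, a member of the tRNA ligase complex (-2.34, 0.27), the splicing factor gene SF3B3 (-2.51, 0.27) and the mitochondrial carrier gene SLC25A12 (-2.39, 0.37). The other probe sets of these genes stood nearer to the untreated mean, with medians of -1.42 for FER, -0.41 for CHP1, 0.0048 for FAM98B, 0.02 for SF3B3 and 0.18 for SLC25A12. The treated values of the near probe sets of FER (5.11) and SLC25A12 (4.84) lie below the filter. Both passed it through the untreated arrays. With 3 arrays, 2 of them untreated, likeness in pattern rests almost wholly on the treated value.

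The kind of listed target sequence went with the difference over the whole array, in a comparison chosen after the values were seen. The 18685 tested probe sets listed with a cDNA or EST outside RefSeq had a median difference of -0.02, and 3.58% were at least 2-fold below both untreated arrays. The 8472 listed with a RefSeq transcript had a median of 0.14, and 0.378% were that far below. For another 92 no sequence was listed. Between the untreated arrays the 2 kinds had medians of -0.01 and -0.0067, and untreated 2 was at least 2-fold below untreated 1 in 0.412% and 0.472% of them. In 4325 genes with tested probe sets of both kinds, those outside RefSeq were the lower ones in 3229 (74.7%). The median of their difference from the RefSeq ones, over all 4325 genes, was -0.21. The 5′ controls of ACTB and GAPDH were lower on the same treated array, and their part in this pattern was not tested.

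**Figure D3:**
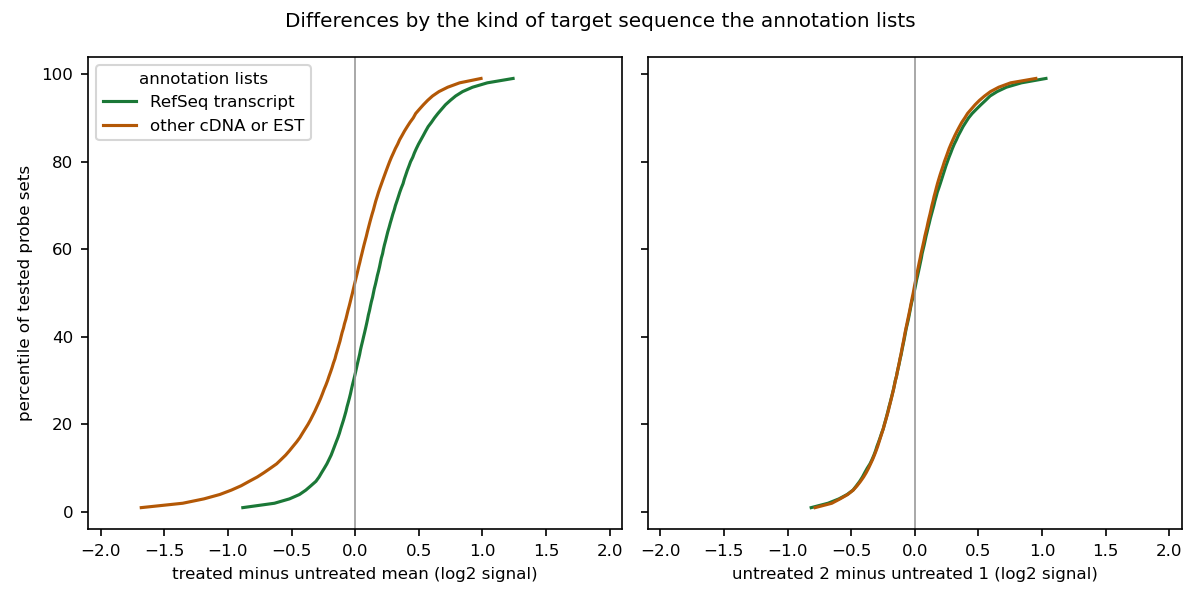
Percentile (vertical axis) of log2 differences over all tested probe sets, for those listed with a RefSeq transcript and those listed with another cDNA or EST. The left panel shows the treated array minus the untreated mean, with medians of 0.14 and -0.02, and the right panel untreated 2 minus untreated 1, where the curves nearly coincide.

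All 13 member probe sets listed outside RefSeq were below the untreated mean, where 52.7% of all such tested probe sets were. Of the 12 listed with a RefSeq transcript 5 were below, where 31.4% of all such probe sets were. CBX5, whose differences led to the choice of the genes, holds 4 of the 13 and 3 of the 12. Without CBX5, 9 of 9 outside RefSeq were below, and 5 of 9 with a RefSeq transcript. Nothing is read from these counts. Of 5 members with both kinds, CBX5, CBX3, SUV39H1 and SETDB1 had the lower median on the probe sets outside RefSeq, and SUV39H2 had the higher. The gap was -1.58 for CBX5, -0.77 for SUV39H1, -0.41 for SETDB1, -0.18 for CBX3 and 1.08 for SUV39H2.

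Both other HP1 genes were lower on every probe set. CBX1 encodes HP1 beta and has 1 probe set, 11715546_s_at, which was 10.40 in the treated array, against 11.07 and 11.11 in the untreated arrays. That is 1.62-fold lower (-0.70), and the untreated values were 0.04 apart. CBX3, which encodes HP1 gamma, found also along active genes, has 3 probe sets with differences between -0.51 and -0.13. The furthest, 11715499_x_at, was 11.99 in the treated array, against 12.48 and 12.51 (1.42-fold lower), and 200037_PM_s_at was 12.46, against 12.60 and 12.61. All 4 probe sets carry an _s_at or _x_at suffix, and both genes have processed copies in the genome, so signal from copies cannot be told apart from these genes.

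The SUV39H enzymes also differed by probe set. SUV39H1 has 5, of which 3, all listed with the RefSeq transcript NM_003173.2, were above both untreated arrays. The brightest, 11721278_s_at, was 10.03 in the treated array, against 9.57 and 9.41 in the untreated arrays, which is 1.46-fold higher (0.54). The other 2 stood at 0.54 (11721279_x_at) and 0.23 (11721277_a_at). Only the last of the 3 has neither an _s_at nor an _x_at suffix. Those listed outside RefSeq did not follow. Probe set 11746768_a_at was 6.53 in the treated array, against 6.90 and 6.81 (-0.32), and 11752693_a_at was 7.40, between the untreated values of 7.67 and 7.37. SUV39H2 has 2 probe sets. The dimmer, 11734831_at, was 5.07 in the treated array, against 6.36 and 6.23, which is 2.34-fold lower (-1.23). Its treated value lies below the filter, and the probe set passed the filter through the untreated arrays. The brighter, 11734830_a_at, was 9.17 in the treated array, against 9.39 and 9.25 (-0.15), so the 2-fold difference of the dim probe set was not seen there.

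TRIM28, the scaffold that binds SETDB1 and HP1 proteins, was the member with the highest difference after 11716277_a_at of CBX5. Its 1 probe set, 11715373_a_at, was 10.75 in the treated array, against 9.93 and 9.79 in the untreated arrays. It was 1.86-fold higher (0.89), with the untreated arrays 0.14 apart, and no other probe set of the gene was analysed here. SETDB1 was not higher with it. Its probe set 11719687_at, listed with a RefSeq transcript, was 7.99 in the treated array, between 7.95 and 8.04 in the untreated arrays, and 11757711_a_at was 6.70, against a mean of 7.12 ± 0.17 (SD, n = 2) in the untreated arrays (-0.42).

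EHMT1 and EHMT2, also known as GLP and G9a, were slightly lower on all 4 probe sets. The brightest of EHMT1, 11756805_a_at, was 10.20 in the treated array, against 10.35 and 10.24 in the untreated arrays (-0.09). Its other 2 probe sets stood at -0.28 and -0.47, and all 3 are listed outside RefSeq. EHMT2 has 1 probe set, 11732391_a_at, with 7.52 in the treated array, against 7.62 and 7.62 (-0.10). Each treated value lay below both untreated values, by less than 1.5-fold.

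**Figure D4:**
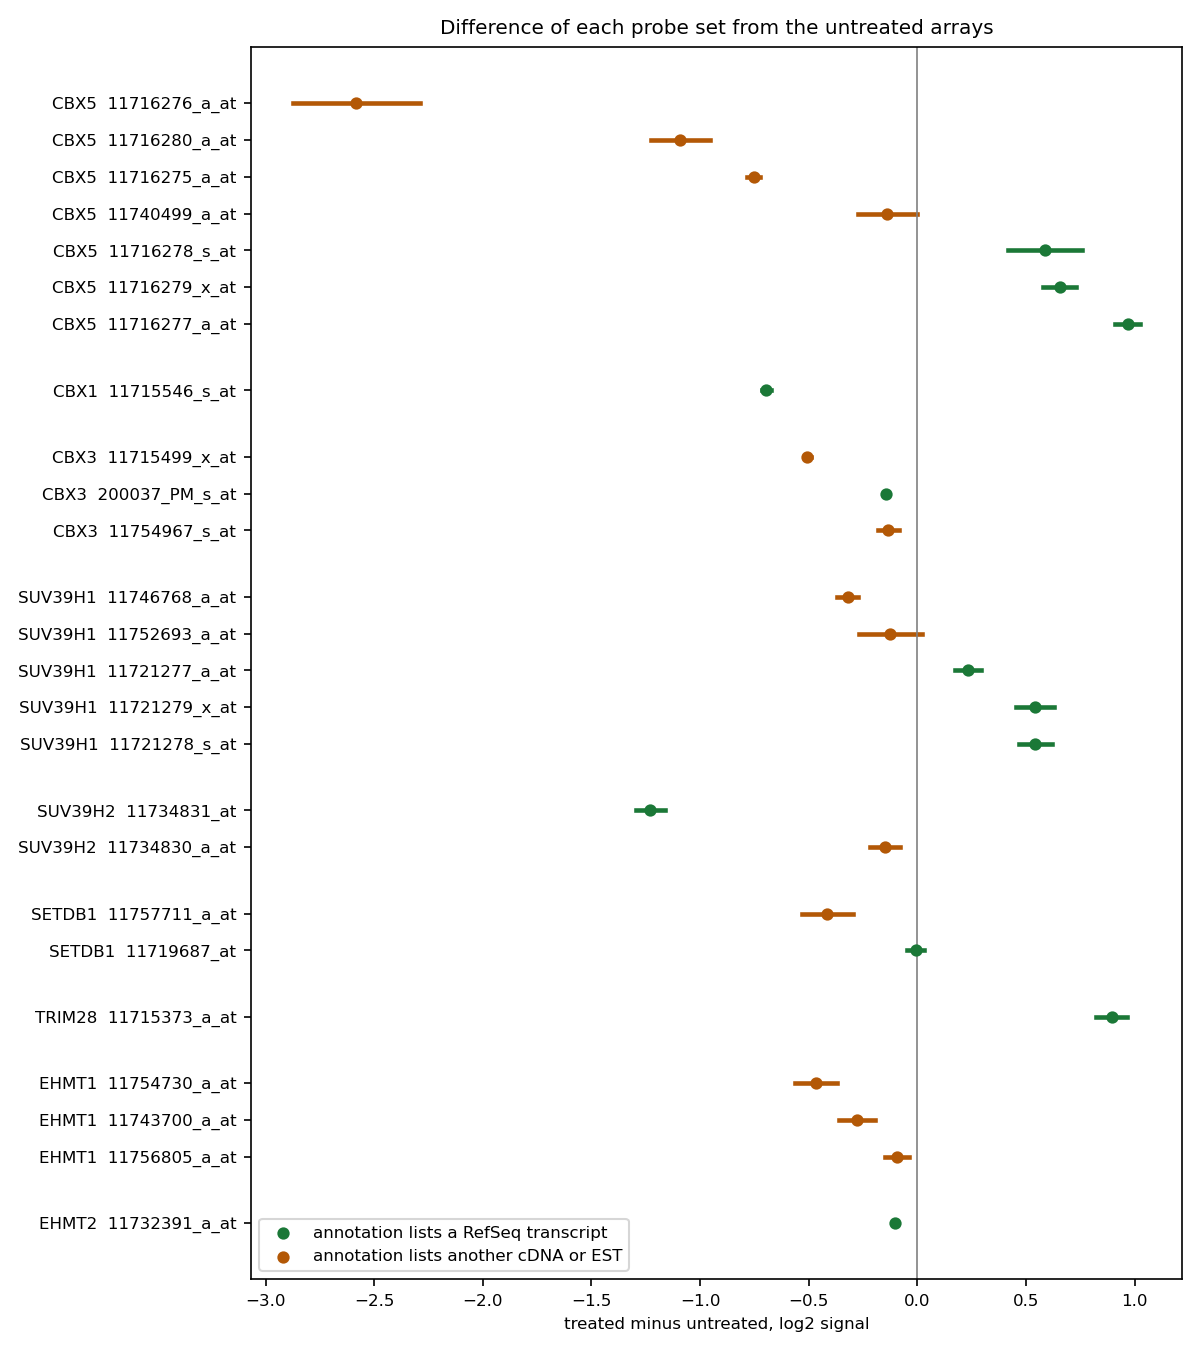
Treated minus untreated log2 difference (horizontal axis) of each member probe set, with the point at the difference from the untreated mean and the bar reaching to the differences from untreated 1 and untreated 2. Colour gives the kind of target sequence in the annotation: the points of all 13 probe sets listed outside RefSeq lie left of 0. Of these, 4 are of CBX5, which was chosen by these differences.

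Counted over the 25 member probe sets, all of which passed the filter, 16 were below both untreated arrays, where 34.5% of the 27249 tested probe sets were, and 7 were above both, where 40.7% were. At least 2-fold below both were 2 (background 2.57%), 11716276_a_at of CBX5 and 11734831_at of SUV39H2, and none was 2-fold above both (0.646%). With a bound of 1.5-fold, 5 were below (6.77%) and 2 above (4.15%). The median difference was -0.14 over the members, and -0.14 over the 18 probe sets left without CBX5, against 0.03 over all tested probe sets. The treated value of 11734831_at lies under the filter. Since the contrast led to the choice of the genes, nothing is read from these counts. Between the untreated arrays, untreated 2 was the lower one in 19 of 25 member probe sets, against 51.7% of all tested, and the median gap was 0.14, against 0.19.

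Genes that work with these proteins were taken from a list of 46 chosen by function, of which 44 had tested probe sets, 119 in all. The treated side is 1 array, so the limma errors below rest on the gap of the untreated pair, moderated over all tested probe sets, and hold no spread of treated cells. With Benjamini-Hochberg adjustment over all tested probe sets, 4 probe sets of 4 genes were past an adjusted p of 0.05 and lower, and none was higher. That is 3.36% of the list, near the 2.93% of all tested probe sets (2.38% lower and 0.554% higher), and the list median was -0.04, against 0.03. HDAC1, a histone deacetylase of corepressor complexes, was lower on 11747406_a_at, with 8.90 in the treated array, against 10.22 and 10.20 in the untreated arrays (-1.31 ± 0.22, SE from limma, adjusted p = 0.0259). Its brighter probe set differed by -0.05. UHRF1, which guides DNA methylation to replicated chromatin, was lower on 11748783_a_at, with 7.33 in the treated array, against 8.60 and 8.45 (-1.20 ± 0.22, limma adjusted p = 0.0368). Its other probe set, listed with a RefSeq transcript, was 11.37 in the treated array, between 11.41 and 11.21.

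The lamin gene LMNB2, whose product lies under the nuclear envelope, was lower on 11716170_at (-1.18 ± 0.23, limma adjusted p = 0.0401), and its other probe set stood at -0.33. KMT5B, which methylates histone H4 at heterochromatin, was lower on 11752144_a_at (-1.21 ± 0.24, limma adjusted p = 0.0423), and its other 4 probe sets lay between -0.63 and -0.09. The 4 genes of the list with the largest differences on their brightest probe sets did not pass the threshold. They were the histone demethylase genes KDM7A (1.14), KDM4A (-0.69) and KDM4D (0.58), and INCENP, of the chromosomal passenger complex (-0.91).

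Polycomb genes form the other repressor system with chromodomain readers. Of 22 listed, 18 were tested with 51 probe sets, of which 2 were past the limma threshold and lower, and none higher (3.92%, near the background of 2.93%), and the list median was -0.05. EZH2, the methyltransferase of the complex, was lower on 11748690_a_at, with 6.50 in the treated array, against 7.72 and 7.82 in the untreated arrays (-1.28 ± 0.22, limma adjusted p = 0.0292). Its brighter probe set, listed with a RefSeq transcript, stood at -0.05. RING1, a ubiquitin ligase for histone H2A, was lower on 11720072_a_at (-1.40 ± 0.26, limma adjusted p = 0.0367), and its other 2 stood at -0.41 and 0.17. Not past the threshold were PHF1 (0.78), CBX7 (0.54), PHC3 (0.53) and PHF19 (-0.46) on their brightest probe sets. All 6 probe sets past the threshold in both lists are listed outside RefSeq, as were 618 of the 648 called lower over the whole array (95.4%). Of all 27249 tested probe sets, 18685 are so listed. None of the 6 is the brightest of its gene, which over the array held for all but 19 of the 639 called lower whose gene had another tested probe set. Of 107 such probe sets called higher, 49 (45.8%) were the brightest. None of the 6 genes passed when each gene was taken by its brightest probe set or by the mean of its probe sets, and only HDAC1 and EZH2 passed after quantile normalisation. Over the whole array 151 probe sets were called higher and 648 lower, against 5 higher and 3 lower with the brightest probe set of each gene, and 5 higher and 5 lower with the mean.

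**Figure D5:**
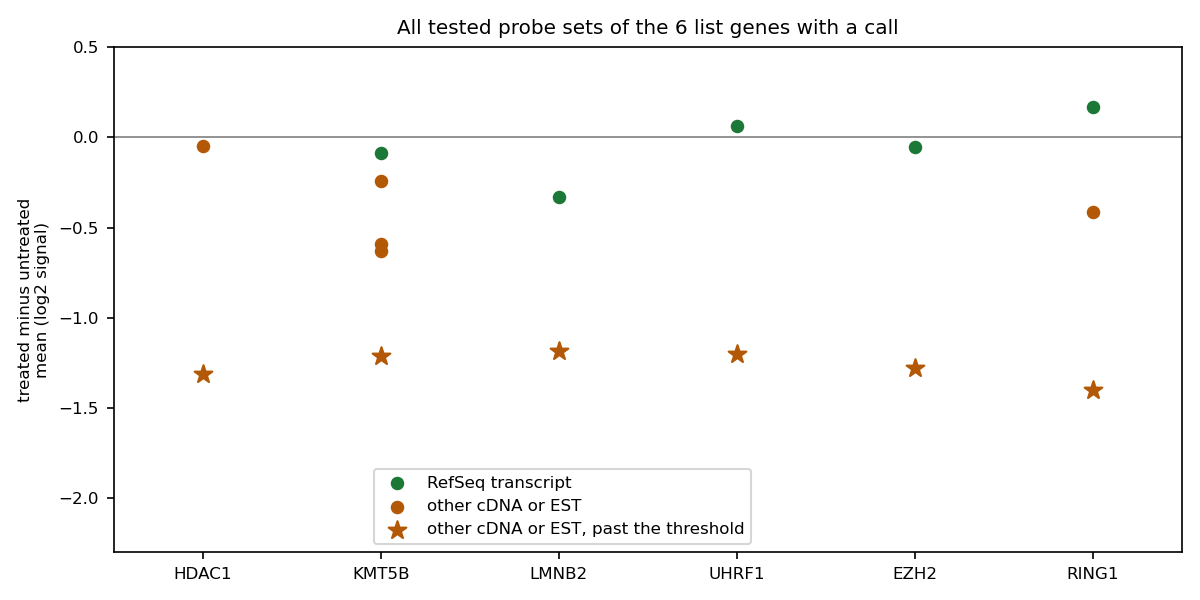
Treated minus untreated mean (vertical axis, log2 signal) of every tested probe set of the 6 genes with a probe set past the limma threshold in the partner and Polycomb lists. Stars mark the probe sets past the threshold, all between -1.40 and -1.18 and all listed outside RefSeq, and the other probe sets of the same genes lie between -0.63 and 0.17.

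Over the whole array, the other probe sets of a gene with a called probe set were more often within 1.5-fold of the untreated mean than beyond it, and seldom that far from it the opposite way. Of 639 probe sets called lower whose gene had another tested probe set, the median of the others lay within 1.5-fold of the untreated mean in 410 (64.2%) and was lower by more than that in 226 (35.4%) and higher by more in 3. Of 107 called higher, the others were within 1.5-fold in 55 (51.4%), higher by more in 52 (48.6%) and lower by more in 0. Called probe sets are picked for a large difference, so others nearer to the untreated mean follow in part from that choice.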

How the data were processed

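Total RNA of FaDu cells was labelled with biotin and hybridised to 3 arrays. The authors' deposited table gives log2 signals for each probe set, from Affymetrix Expression Console according to the submitters' processing notes. The log2 scale was read from the values. For algorithm and normalization, the sources used here give nothing. Probe sets were named through the platform annotation, with symbols brought up to date through gene IDs. Of 49395 probe sets, 102 are controls, 44988 name 1 gene, 1832 several and 2473 none here. Those naming 1 gene with a mean at or above the 40th percentile (5.85), 27249 in number, were tested singly with limma (version 3.58.1, R version 4.3.3), treated minus untreated, with Benjamini-Hochberg adjustment. The untreated pair gives the only residual degree of freedom (1), moderated with 6.66 prior degrees of freedom, and the treated array was assumed to have the same spread. No detection call could be made, and the 3 arrays limit the precision.

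The members and lists were chosen with earlier results of these data known. Genes named were all members, called probe sets of each list, its 4 largest differences on brightest probe sets, the 5 nearest patterns, HNRNPA1 and the ACTB and GAPDH controls. FCF1, QKI and the kinds of target sequence were chosen after the values were seen. Some listed genes were not analysed here. The count of members past the limma threshold, which was planned, is not reported, since this contrast led to their choice. Alternatives were other normalizations, filters, prior variances and gene summaries, and leaving out each untreated array.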

Additional observations from a re-analysis of the deposited data

How the results depend on the processing

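The count of called probe sets was 799 (151 higher, 648 lower). It was 455 after quantile normalisation, 440 with the filter at the 60th percentile, 8 with the brightest probe set per gene (5 higher, 3 lower) and 10 with the mean of probe sets per gene (5 higher, 5 lower). It was 1143 with a common median over tested probe sets, 711 with one over all probe sets, 538 without a filter, 938 without _s_at and _x_at probe sets, 953 with the trend prior and 768 with the robust one. Lower calls outnumbered higher ones in each of these except by brightest probe set and by mean. At an unadjusted p under 0.05 limma counted 4868 of the 27249. Partner list calls were 4, but 1 after quantile normalisation (HDAC1), 2 without a filter (HDAC1 and ATF7IP), 3 with the 60th percentile filter (without KMT5B), and 0 by brightest or mean. They were 5, with MPHOSPH8 added, with a common median over tested probe sets, without _s_at and _x_at probe sets and with the trend prior. Polycomb calls were 2, but 1 after quantile normalisation and without a filter (EZH2), 1 with the 60th percentile filter (RING1), and 0 by brightest or mean. The cause was not tested. With a 1.5-fold bound 7 of the 25 member probe sets lay beyond both untreated arrays, against 2 with the 2-fold bound. Over all tested probe sets, 6.77% were 1.5-fold below both and 4.15% above both. The member median of -0.14 was -0.26 over gene means and between -0.16 and -0.09 under the other settings that keep both untreated arrays; leaving out untreated 1 or 2 gave -0.10 and -0.18. Of 25 member differences, only those near 0 changed sign: 11719687_at of SETDB1 (0.03 when arrays shared a median over all probe sets, and 0.03 without untreated 2) and 11752693_a_at of SUV39H1 (0.02 without untreated 1). Leaving out an untreated array leaves 1 against 1, so no calls could be made. No paired analysis was possible because the treated group has 1 array.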
